A study of Homo sapiens with 6 samples.

Results

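Aminoacyl-tRNA synthetases were examined in 6 samples of MDA-MB-231 xenografts, of which 3 came from the core (TC) and 3 from the margin (TM) of tumors. The genes were taken by name from the gene matrix: 35 synthetase genes of 60671 annotated genes, of which 19 encode cytosolic enzymes and 16 encode mitochondrial enzymes. Of the annotated genes 13861 had at least 1 TPM in at least 3 samples and were tested, and all 35 synthetase genes were among them. TPM is a length-corrected transcript abundance scaled to a fixed sum in each sample.

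The MDA-MB-231 line derives from a human breast cancer of the triple-negative kind. In both groups wild-type cells of this line had been injected with Matrigel into the mammary fat pads of NSG mice, which lack B, T and NK cells but keep other host cells, and the groups differ in the zone that was taken. By the study's methods the mice were female, 6 to 8 weeks old, with 3 mice per group. Whether the core and the margin with the same number came from 1 mouse was not given, so p-values measure the spread between these samples.

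A synthetase joins an amino acid to its matching tRNA and so supplies the ribosome. The cytosol and the mitochondrion each have a set of enzymes, and the mitochondrial enzymes, although encoded in the nucleus, are imported and serve the translation of the few proteins that mitochondrial DNA encodes. The enzymes fall into class I and class II by the fold of the catalytic domain, and several cytosolic enzymes are held together in the multisynthetase complex. Many cytosolic synthetase genes are known targets of ATF4, the transcription factor of the amino acid response, which binds the composite element whose core reads TGATGNAA.

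The matches to that element are shown first, because more cytosolic than mitochondrial genes held one. RefSeq promoters (GRCh38.p14, 300-base windows that span the annotated start) were found for 30 of the 35 genes, and both strands were searched for TGATGNAA. The element was found in 7 of 16 cytosolic genes with a promoter (43.8%) and in 1 of 14 mitochondrial genes (7.14%), against 4.48% of 27058 genes and 3.63% of 34796 promoters. Each line gives 30 bases on the strand of the gene, 5′ to 3′, with the match in capitals.
MARS1, chr12:57488053-57488082, plus strand: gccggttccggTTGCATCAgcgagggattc
IARS1, chr9:92293692-92293721, minus strand: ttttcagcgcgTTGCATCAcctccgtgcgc
AARS1, chr16:70289675-70289704, minus strand: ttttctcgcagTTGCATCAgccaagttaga
CARS1, chr11:3057407-3057436, minus strand: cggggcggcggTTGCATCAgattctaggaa
TARS1, chr5:33440956-33440985, plus strand: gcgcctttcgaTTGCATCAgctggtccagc
GARS1, chr7:30594834-30594863, plus strand: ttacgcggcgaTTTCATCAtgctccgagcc
NARS1, chr18:57621804-57621833, minus strand: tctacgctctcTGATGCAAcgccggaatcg
YARS2, chr12:32756076-32756105, minus strand: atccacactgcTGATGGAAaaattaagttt
The letters TTGCATCA recur in 5 of these 8 windows, all of cytosolic genes. Measured to the first base of the match, it lay 2 bases before the annotated start in CARS1, 4 in MARS1, 13 in IARS1 and 33 in GARS1, and at base 3 after it in TARS1 and base 15 in NARS1. In AARS1 and in the mitochondrial YARS2 it lay farther out, at 187 and 197 bases before the start. The other motif searched, CACGTG (the E-box bound by MYC), was found in 1 cytosolic gene (6.25%) and in 3 mitochondrial genes (21.4%), against 8.72% of genes, and in IARS1, which held both, they did not overlap. A match of letters is not a binding site, and no factor was measured here.

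A second stretch of DNA is shown because it lies between the annotated starts of a cytosolic and a mitochondrial enzyme. HARS1 and HARS2, the cytosolic and mitochondrial histidine enzymes, are read away from each other, and their annotated RefSeq starts lie 85 bases apart. In GENCODE v29, which holds longer transcripts, the genes overlap by 437 bases on opposite strands, so reads from that part cannot be told apart if strand was not used in counting. The stretch between them (chr5:140691370-140691455, GRCh38.p14) is given on the plus strand, with the first base of HARS1 (read leftward) and the first base of HARS2 (read rightward) in capitals.
HARS1 to HARS2: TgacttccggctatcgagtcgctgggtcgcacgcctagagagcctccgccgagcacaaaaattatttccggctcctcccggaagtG

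Depth is unknown, since the authors deposited TPM without read counts, and no counting error could be given. The total of all rows was 1000000 for 5 samples but 994381 for TM replicate 3. Of the genes that mark the line, VIM, CD44, KRT8, KRT18, MSN, CAV1, EGFR and AXL were all well above the filter, with VIM between 3797 and 5283 TPM, whereas of the genes known to be low in it ESR1, PGR, CDH1, KRT5 and KRT14 did not pass it. ERBB2, which a triple-negative line does not amplify, was present at 22.3 to 40.7 TPM, and EPCAM (3.66 to 6.02 TPM) and GATA3 (2.02 to 3.90 TPM) also passed. Markers of other cells differed among the margin samples. The summed level of 9 skeletal muscle genes ran from 3.6 to 7.5 TPM in TC. In TM replicates 1, 2 and 3 it was 167.0, 440.6 and 1.75 TPM. That of 8 fibroblast genes was 65.7 to 224 TPM in TC and 476, 1004 and 89 TPM in TM. With TM replicate 3 so low, both sums overlapped between the zones. The sums of 7 endothelial (4.17 to 7.77 TPM) and 7 macrophage genes (95.2 to 108 TPM) overlapped between the zones. Of these lists 1 endothelial and 3 macrophage genes passed the filter. The median macrophage gene averaged 0.31 TPM, so the macrophage sum rests on few genes. The sums of 6 adipocyte and 6 erythroid genes stayed under 7 TPM, with 2 genes of each of these 2 lists at 0 in all samples. Most of the fibroblast sum came from collagen genes, with COL1A1 at 335, 698 and 62.9 TPM in TM replicates 1, 2 and 3. Of the other listed genes POSTN followed at a low level (1.93, 2.35 and 0.46 TPM). LUM (0 TPM in TM replicates 1 and 2), PDGFRA (0.08 to 0.30 TPM over the 6 samples), PDGFRB and DCN did not. TM replicates 1 and 2 thus held muscle and collagen transcripts that TM replicate 3 did not hold to that degree. Their part in the results below was not tested beyond the comparison with TM replicate 3 alone. In such bulk samples, fewer cells of a type and less RNA per cell cannot be told apart.

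The 2 sets differed first in level. Among cytosolic enzymes the mean over the 6 samples ran from 11.5 TPM (FARSB) to 326 TPM (QARS1) with a median of 86.7 TPM, and among mitochondrial enzymes from 3.77 TPM (PARS2) to 48.9 TPM (IARS2) with a median of 14.2 TPM. Of the 19 cytosolic genes 13 lay above the highest mitochondrial gene. QARS1, the glutamine enzyme of the multisynthetase complex, held 303, 342 and 279 TPM in TC and 341, 314 and 379 TPM in TM, and the zones overlapped. SARS1, which charges serine and selenocysteine tRNA, was next, followed by KARS1. At the other end FARSB stood apart from the rest of its set, although its product and that of FARSA are joined in equal parts in the phenylalanine enzyme: FARSA averaged 82.2 ± 10.98 TPM in TC and FARSB 8.90 ± 1.13 TPM (SD, n = 3). In TM the same genes averaged 106 ± 19.4 TPM and 14.2 ± 4.58 TPM (SD, n = 3).

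**Figure D1:**
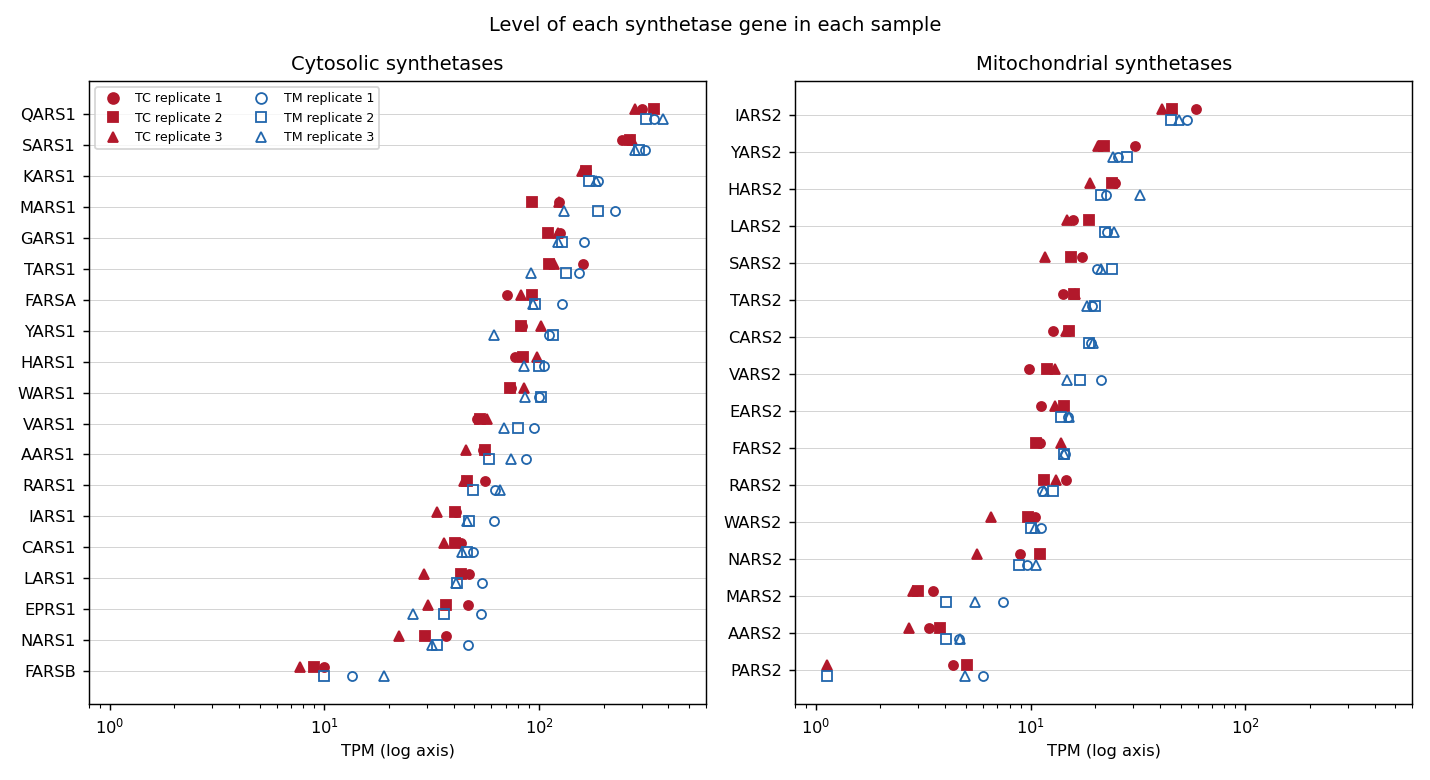
TPM (horizontal log axis) of each of the 19 cytosolic and 16 mitochondrial synthetase genes (rows, ordered by mean), with filled red marks for the 3 TC samples and open blue marks for the 3 TM samples. Most cytosolic genes lie to the right of the mitochondrial ones, whose highest, IARS2, averaged 48.9 TPM, and in most rows the blue marks lie to the right of the red.

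Next, the zones were compared. Of the 35 synthetase genes 32 (91.4%) had a lower mean log2(TPM + 1) in TC than in TM, and in 17 (48.6%) every TC sample lay below every TM sample. Over all tested genes the same shares were 67.0% and 18.9%, and in 3.28% every TC sample lay above every TM sample, which held for no synthetase. Unadjusted p was under 0.05 for 11 synthetases (31.4%), all lower in TC, where 14.2% of all tested genes were lower and 1.93% higher at that threshold. No synthetase passed an adjusted p of 0.05 (limma, Benjamini-Hochberg over all tested genes), against 0.137% of all tested genes that did, and the smallest value was 0.132, for VARS1. The median difference of the synthetases was -0.24 (log2, TC minus TM), against -0.14 over all tested genes, or -0.11 relative to them.

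Scaling changed the share of lower genes. With the samples rescaled by median-of-ratios factors, which moved the median of all tested genes from -0.14 to 0.02, 24 synthetases (68.6%) were lower in TC against 47.3% of all genes, and 3 (8.57%) were lower at an unadjusted p under 0.05 against 7.65%. None was higher at that threshold, against 5.76%. After quantile normalization 26 (74.3%) were lower against 48.3%, and 2 (5.71%) were lower at an unadjusted p under 0.05 against 8.11%, with none higher against 5.32%. Thus the surplus of lower signs was seen under all 3 scalings, while the surplus of genes at the unadjusted threshold was seen in the values as deposited and was near the background after either rescaling.

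Cytosolic enzymes were lower in TC in 17 of 19 cases (89.5%, against 67.0% of all tested genes), with a median difference of -0.21. Of them 6 (31.6%, against 14.2%) were lower at an unadjusted p under 0.05. In 9 (47.4%, against 18.9%) every TC sample lay below every TM sample. After median-of-ratios rescaling 13 (68.4%) were lower against 47.3%, and 2 (10.5%) at that threshold against 7.65%. After quantile normalization 16 (84.2%) were lower against 48.3%, and 2 (10.5%) at that threshold against 8.11%. VARS1, the valine enzyme (chr6:31777518-31795953, GENCODE v29), held 51.3, 53.3 and 57.3 TPM in TC and 95.1, 79.6 and 68.4 TPM in TM. The TC values lay within a narrow range and all below the margin, with a difference of -0.57 ± 0.15 (SE, adjusted p = 0.132). It kept an unadjusted p under 0.05 after quantile normalization (-0.47), after median-of-ratios rescaling (-0.39) and without any single sample. With TM replicate 3 alone as the margin the difference was -0.34.

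MARS1, the methionine enzyme of the multisynthetase complex, had the largest cytosolic difference. It held 124, 93.1 and 124 TPM in TC and 225, 188 and 130 TPM in TM, so that the groups did not overlap but TM replicate 3 lay close to the core. The difference was -0.64 ± 0.21 (SE, adjusted p = 0.194), -0.58 after quantile normalization and -0.46 after median-of-ratios rescaling. MARS1 overlaps ARHGAP9 and, by 982 bases, DDIT3 on the opposite strand, and reads of overlapping genes cannot be told apart if strand was not used in counting. DDIT3, which encodes the stress factor CHOP, went the other way, with 33.6, 36.4 and 33.7 TPM in TC and 21.4, 26.4 and 31.1 TPM in TM (0.40, adjusted p = 0.301).

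The subunits of the phenylalanine enzyme were both lower in TC on average. FARSB, the beta subunit, held 9.98, 8.98 and 7.73 TPM in TC and 13.5, 9.97 and 19.04 TPM in TM. TM replicate 2 fell just inside the core's range, TM replicate 3 was the highest, and the difference was -0.58 ± 0.25 (SE, adjusted p = 0.307). FARSA, the catalytic alpha subunit, differed by -0.35 without overlap (adjusted p = 0.356).

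AARS1 and IARS1, the alanine and isoleucine enzymes, carry the element shown above. AARS1 held 55.1, 56.3 and 45.5 TPM in TC and 86.5, 58.7 and 73.9 TPM in TM, with TM replicate 2 close to the core. IARS1 held 40.9, 40.6 and 33.3 TPM in TC and 61.4, 47.4 and 45.9 TPM in TM, with TM replicate 1 above the rest. Neither gene overlapped between the zones, and the differences were -0.46 ± 0.17 for AARS1 (SE, adjusted p = 0.243) and -0.41 ± 0.17 for IARS1 (SE, adjusted p = 0.268). WARS1, the tryptophan enzyme, is known as an interferon-induced gene. It held 73.9, 73.2 and 84.9 TPM in TC and 99.7, 102 and 85.7 TPM in TM, where the lowest margin sample was barely above the highest core sample, and differed by -0.31 ± 0.13 (SE, adjusted p = 0.305).

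At the other end of the cytosolic set, the zones overlapped for TARS1, EPRS1 and YARS1. TARS1, the threonine enzyme, held 160, 111 and 118 TPM in TC and 153, 134 and 91.4 TPM in TM. EPRS1, which joins the glutamate and proline enzymes in 1 chain, held 46.6, 37.0 and 30.5 TPM in TC and 53.5, 36.0 and 26.0 TPM in TM. In both genes replicate 1 was the highest sample of either zone, and the differences were 0.05 ± 0.22 and 0.02 ± 0.27 (SE). YARS1, the tyrosine enzyme, held 83.3, 82.8 and 102 TPM in TC and 112, 116 and 61.5 TPM in TM, so that TM replicates 1 and 2 were above the core and TM replicate 3 below it. Its difference was -0.06 ± 0.24 (SE), but 0.52 when TM replicate 3 alone stood for the margin and -0.35 without that replicate.

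GARS1 and KARS1, the glycine and lysine enzymes, are each made from 1 gene for both compartments. GARS1 held 125, 110 and 122 TPM in TC and 161, 128 and 122 TPM in TM, with TM replicate 1 above an otherwise shared range. KARS1 was the steadiest synthetase, with a coefficient of variation of 6.63% over the 6 samples. Its values were 166, 165 and 158 TPM in TC and 188, 171 and 184 TPM in TM, which did not overlap but lay close together. The differences were -0.19 ± 0.14 for GARS1 and -0.15 ± 0.11 for KARS1 (SE, adjusted p = 0.585 and 0.587), that is, near the median of all genes, and KARS1 changed sign to 0.03 after median-of-ratios rescaling. HARS1 held 76.9, 84.5 and 97.6 TPM in TC and 105, 99.5 and 85.3 TPM in TM (-0.16 ± 0.14, SE, adjusted p = 0.647). QARS1 differed by -0.16 ± 0.13 (SE, adjusted p = 0.609). The other 6 cytosolic genes, FARSA included, differed by -0.18 (SARS1) to -0.35 (FARSA), with adjusted p from 0.356 to 0.695, and SARS1, CARS1 and FARSA did not overlap between the zones.

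**Figure D2:**
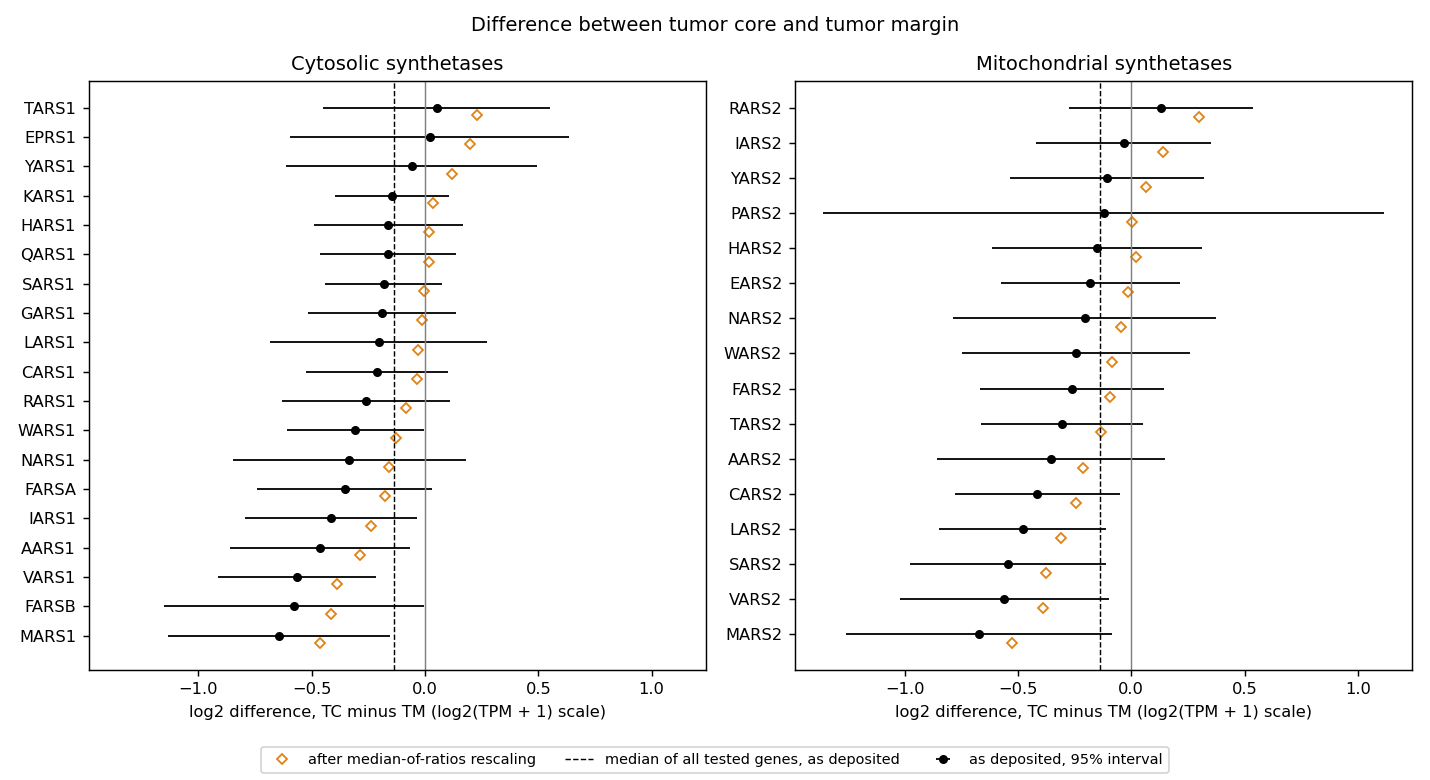
Difference in log2(TPM + 1), TC minus TM, of each cytosolic and mitochondrial synthetase gene (black points, with 95% intervals from limma) and after median-of-ratios rescaling (orange diamonds), beside 0 (grey line) and the median of all tested genes (dashed line, -0.14). The 11 intervals that lie wholly below 0 belong to 6 cytosolic and 5 mitochondrial genes, and the diamonds lie to the right of the points in every row.

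Mitochondrial enzymes were lower in TC in 15 of 16 cases (93.8%, against 67.0% of all tested genes), with a median difference of -0.25. Of them 5 (31.2%, against 14.2%) were lower at an unadjusted p under 0.05. In 8 (50.0%, against 18.9%) every TC sample lay below every TM sample. After median-of-ratios rescaling 11 (68.8%) were lower against 47.3%, and 1 (6.25%) at that threshold against 7.65%. After quantile normalization 10 (62.5%) were lower against 48.3%, and 0 at that threshold against 8.11%. MARS2, the mitochondrial methionine enzyme, held 3.53, 2.99 and 2.83 TPM in TC and 7.47, 4.05 and 5.54 TPM in TM. All core samples were below the margin, at a low level, and the difference was the largest of all 35 genes as deposited, -0.67 ± 0.26 (SE, adjusted p = 0.252) and -0.53 after median-of-ratios rescaling. LARS2, the leucine enzyme, held 15.8, 18.7 and 14.8 TPM in TC and 22.8, 22.3 and 24.6 TPM in TM. Here the margin samples lay close together, above the core by more than the spread of either group (-0.48 ± 0.16, SE, adjusted p = 0.198).

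CARS2, the cysteine enzyme, showed the same order, with 12.8, 15.1 and 14.7 TPM in TC and 19.2, 18.8 and 19.5 TPM in TM (-0.41 ± 0.16, SE, adjusted p = 0.255). VARS2, the valine enzyme, held 9.89, 11.97 and 13.1 TPM in TC and 21.3, 17.1 and 14.8 TPM in TM (-0.56 ± 0.20, SE, adjusted p = 0.224). SARS2, the serine enzyme, held 17.3, 15.5 and 11.7 TPM in TC and 20.5, 23.9 and 21.2 TPM in TM (-0.54 ± 0.19, SE, adjusted p = 0.206). In none of CARS2, VARS2 and SARS2 did the zones overlap, but the latter pair share sequence with neighbors on the same strand. Of the 75-base words in SARS2 transcripts 43.7% also occur in transcripts of other genes, most of them in ENSG00000269547, and for VARS2 it was 19.8%, with GTF2H4. The neighbors were themselves lower in TC, at -0.50 for ENSG00000269547 and -0.32 for GTF2H4, so the values of SARS2 and VARS2 are uncertain. The share was 9.15% for HARS2 and smaller for every other synthetase.

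RARS2, the arginine enzyme, was the one mitochondrial gene with a higher mean in TC, with 14.6, 11.6 and 13.1 TPM in TC and 11.3, 12.7 and 11.5 TPM in TM, and the zones overlapped (0.13 ± 0.18, SE, adjusted p = 0.781). IARS2, the isoleucine enzyme and the most abundant of this set, held 59.2, 45.7 and 40.9 TPM in TC and 53.5, 45.2 and 49.1 TPM in TM. YARS2, the tyrosine enzyme with the outlying element match, held 30.7, 21.9 and 20.6 TPM in TC and 25.7, 28.1 and 24.2 TPM in TM. In both genes TC replicate 1 was the highest of all samples, and the differences were -0.03 ± 0.17 and -0.11 ± 0.19 (SE). HARS2 held 24.7, 23.9 and 19.01 TPM in TC and 22.5, 21.4 and 32.2 TPM in TM, a difference of -0.15 ± 0.20 (SE) that rests on TM replicate 3 and was 0.03 without it. PARS2, the proline enzyme, was too variable to compare: it held 4.34, 5.06 and 1.13 TPM in TC and 6.02, 1.13 and 4.93 TPM in TM, with a coefficient of variation of 56.1%. IARS2, YARS2, HARS2 and PARS2 all changed sign, to small positive values, after either rescaling. The other 6 mitochondrial genes differed by -0.18 (EARS2) to -0.35 (AARS2), with adjusted p from 0.398 to 0.758, and AARS2, FARS2 and TARS2 did not overlap between the zones.

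The direct comparison of the compartments showed no difference between the zones beyond the spread. Summed over its genes, the cytosolic set held 1814, 1777 and 1744 TPM in TC and 2347, 2042 and 1928 TPM in TM, and the mitochondrial set 252, 238 and 210 TPM in TC and 284, 266 and 281 TPM in TM. Both sums were thus higher in every margin sample than in any core sample. Their ratio averaged 7.66 ± 0.59 over the TC samples and 7.60 ± 0.70 over the TM samples (SD, n = 3). GARS1 and KARS1, which serve both compartments, were counted as cytosolic only, at means of 128 and 172 TPM over the 6 samples. The gap in level between the compartments depends on that choice. The mean log2 level of the cytosolic genes exceeded that of the mitochondrial genes by 2.48 ± 0.09 in TC and by 2.47 ± 0.16 in TM (SD, n = 3), and the difference of these differences was 0.01. It was 0.19 when TM replicate 3 alone stood for the margin. A score over chosen genes was given no p-value.

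Single samples weighed on the counts in both compartments. TM replicate 1 was the highest of the 6 samples for 13 of 19 cytosolic genes (68.4%) and 5 of 16 mitochondrial genes (31.2%), against 28.3% of all tested genes. TC replicate 3 was the lowest for 9 cytosolic (47.4%) and 10 mitochondrial genes (62.5%), against 35.8%. The same samples had the largest and the smallest median-of-ratios factor, 1.15 and 0.865, and whether the compartments differ in these counts was not tested. Without TM replicate 1 the number of cytosolic genes with an unadjusted p under 0.05 fell from 6 to 1, which was VARS1, and that of mitochondrial genes from 5 to 2, LARS2 and SARS2, while over all tested genes it fell from 2240 to 1643. With TM replicate 3 alone as the margin, the sample with few muscle and collagen transcripts, 15 of 19 cytosolic and 15 of 16 mitochondrial genes were lower in TC, against 56.2% of all tested genes. That comparison sets 3 samples against 1, so its spread comes from the core alone and the margin sample is assumed to vary like the core.

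For 15 amino acids both a cytosolic and a mitochondrial enzyme were among the genes, which allowed the enzymes to be compared within each sample. The cytosolic enzyme was the higher in all 6 samples in 14 of the 15 pairs. The gap was widest for methionine, where MARS1 exceeded MARS2 by 35.04-fold on average over the samples (23.5 to 46.5), followed by alanine (16.1-fold) and serine (15.8-fold), and among pairs with the cytosolic enzyme on top it was narrowest for leucine (2.2-fold). Isoleucine was the exception, with an IARS1 to IARS2 ratio of 0.92 on average. The log2 ratio (TPM + 1) stood at -0.52, -0.17 and -0.29 for the TC samples and at 0.20, 0.07 and -0.09 for the TM samples, so the mitochondrial enzyme was the higher in the core and the enzymes were about level in the margin. It was the one pair of 15 (6.67%) whose ratio did not overlap between the zones, counted in either direction. Of single genes 18.9% lay wholly lower and 3.28% wholly higher in TC. A ratio within a sample moves little with the scaling of that sample, so the shares of single genes are not a like baseline.

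In 12 pairs both enzymes were lower in TC, and in 10 pairs the change of the ratio was within 1 pooled SD of the replicates. Valine was the most even. VARS1 differed by -0.57 and VARS2 by -0.56, and their log2 ratio stayed between 2.05 and 2.26 over the core samples and between 2.11 and 2.16 over the margin samples. Methionine was similar, at -0.64 for MARS1 and -0.67 for MARS2. Arginine, serine and threonine were the least even of the pairs that overlapped: the change of the log2 ratio was -0.39 for RARS1/RARS2, 0.36 for SARS1/SARS2 and 0.36 for TARS1/TARS2, with SARS2 at -0.54 against -0.18 for SARS1, and TARS2 at -0.30 against 0.05 for TARS1. For histidine, whose genes start back to back on the stretch printed above, the core samples had log2 ratios of 1.60, 1.78 and 2.30 and the margin samples 2.17, 2.17 and 1.38. The pair of genes thus did not keep a fixed ratio among the samples of a zone, and the zone means differed by -0.01. These ratios rest on genes that overlap, and of the 75-base words 5.97% in HARS1 and 9.15% in HARS2 transcripts also occur in transcripts of other genes, most often of the other gene of the pair.

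**Figure D3:**
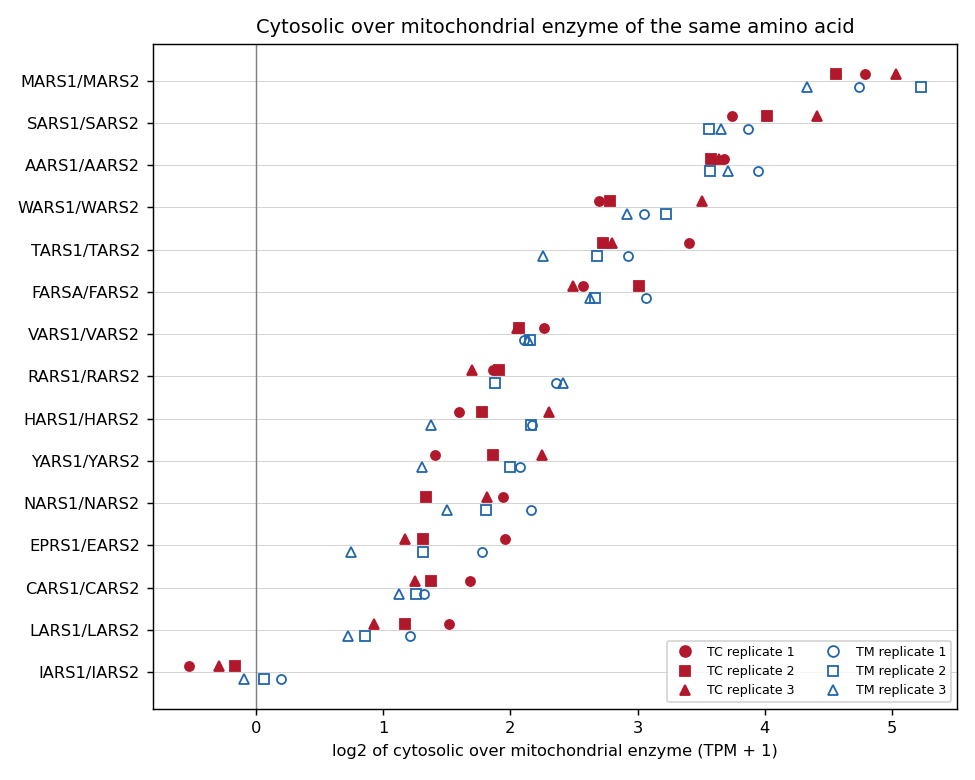
Log2 ratio of the cytosolic over the mitochondrial enzyme (TPM + 1, horizontal axis) for 15 amino acids in the 3 TC samples (filled red) and the 3 TM samples (open blue), ordered by mean. All pairs but IARS1/IARS2 lie above 0 in all samples, and IARS1/IARS2 is the one row in which the red and blue marks do not overlap.

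Other groupings of the synthetases showed medians near each other. The 7 cytosolic members of the multisynthetase complex had a median difference of -0.20 and the 12 outside it -0.26. The 18 class I enzymes had a median of -0.25 and 8 genes (44.4%) at an unadjusted p under 0.05. The 16 class II enzymes had a median of -0.23 and 3 such genes (18.8%), with EPRS1 left out as it belongs to both classes. Over all tested genes 16.2% were at that threshold in either direction. The class I and class II counts were 3 (16.7%) and 0 after median-of-ratios rescaling and 2 (11.1%) and 0 after quantile normalization. Under either rescaling 13.4% of all tested genes were at that threshold, so the class I shares were near the background. The 7 cytosolic genes with the TGATGNAA element had a median of -0.33 and ran from -0.64 (MARS1) to 0.05 (TARS1), against -0.18 for the 9 cytosolic genes with a promoter but without it. The order of those medians was not stable: it was -0.16 against 0.00 after median-of-ratios rescaling and -0.16 against -0.20 after quantile normalization.

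The genes around the synthetases were then followed in lists written from general knowledge, and no gene of these lists passed an adjusted p of 0.05. Among 17 tested genes of ATF4 and its targets, 13 were lower in TC (76.5%, against 67.0% of all tested genes), with a median of -0.14, near that of all genes. After median-of-ratios rescaling 8 (47.1%) were lower against 47.3%. PYCR1, of proline synthesis, held 66.1, 73.6 and 61.3 TPM in TC and 86.4, 76.5 and 80.7 TPM in TM (-0.28, adjusted p = 0.348), and PSAT1, of serine synthesis, differed by -0.39 with overlap (adjusted p = 0.398). DDIT3, given above, was the one gene of the list with an unadjusted p under 0.05, and it was higher in TC. Of 12 amino acid transporters 9 were lower, with a median of -0.21. SLC7A1, the carrier of cationic amino acids, held 26.3, 24.2 and 24.5 TPM in TC and 41.0, 39.4 and 30.8 TPM in TM (-0.54, adjusted p = 0.152), close in size to that of VARS1.

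Genes that act beside the enzymes in translation did not share their median. Of the multisynthetase scaffold, AIMP2 differed by -0.29 without overlap, AIMP1 by -0.01 and EEF1E1 by 0.13 (adjusted p from 0.372 to 0.986). The 6 cytosolic elongation factors had a median of 0.06, and 5 of them were higher in TC. The 1 lower factor made 16.7% of the list, against 67.0% of all tested genes. After median-of-ratios rescaling the share was again 16.7%, against 47.3%. EEF1B2, with 892, 925 and 868 TPM in TC and 813, 714 and 816 TPM in TM, did not overlap (0.20, adjusted p = 0.462). In mitochondria, the 3 genes of the amidotransferase that makes glutaminyl-tRNA in place of a glutamine enzyme had a median of 0.00 and the 10 translation factors a median of -0.14. Of 16 genes of tRNA processing and export 13 were lower (81.2%, against 67.0% of all tested genes), with a median of -0.07. After median-of-ratios rescaling 7 (43.8%) were lower against 47.3%. ELAC2, which trims the 3′ ends of tRNA precursors, stood apart in that list with 44.2, 44.1 and 55.4 TPM in TC and 75.8, 67.1 and 65.7 TPM in TM (-0.53, adjusted p = 0.136). The interferon-gamma list, to which WARS1 is related, had 6 of 10 genes tested and a median of 0.05, with GBP2 at 0.50 (adjusted p = 0.299), opposite in sign to WARS1. After median-of-ratios rescaling the medians of all these lists were above 0, except that of the amino acid transporters (-0.06). The median of all tested genes was then itself 0.02. Those of ATF4 and its targets (0.02) and of the mitochondrial translation factors (0.04) lay near it.

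**Figure D4:**
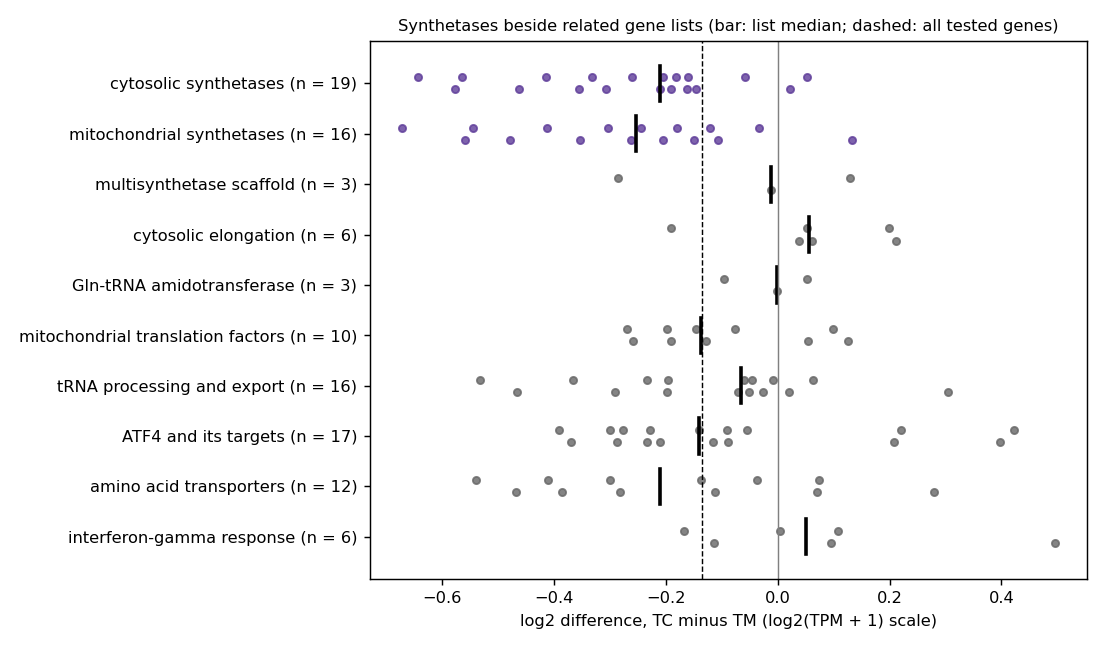
Difference in log2(TPM + 1), TC minus TM, for each tested gene (points) of the 2 synthetase sets and of 8 related lists (rows, number of tested genes in brackets), with the median of each list (black bar), 0 (grey line) and the median of all tested genes (dashed line, -0.14). The synthetase sets (-0.21 and -0.25) and the amino acid transporters (-0.21) have medians to the left of the dashed line. Those of ATF4 and its targets and of the mitochondrial translation factors lie almost on it (both -0.14), whereas that of the elongation factors lies at 0.06.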

How the data were processed

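RNA-seq of 3 TC and 3 TM samples was used, grouped by the sample titles. By the study's methods and the submitters' processing notes, SeqPrep and Sickle trimmed the paired TruSeq reads, HISAT2 aligned them to hg38, StringTie assembled transcripts and RSEM gave gene levels. The annotation release was not given in the sources used here, and no step that parts mouse from human reads was described. The authors deposited TPM per gene. TPM keeps no depth, so the count model of the study could not be run. No column was left unmapped (0 other sample columns).

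Gene IDs were matched to symbols for 60401 of 60671 annotated genes, through older symbols where needed. Positions and overlaps are from GENCODE v29 (GRCh38) and promoters from RefSeq (GRCh38.p14, without chromosome 8). The zones were compared on log2(TPM + 1) with limma 3.58.1 under R 4.3.3 (empirical Bayes with a trend, two-sided, no covariate), for genes that reached 1 TPM in 3 or more samples, with Benjamini-Hochberg adjustment over all 13861. This scale understates the change of low genes. The procedure was tested on simulated data.

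The members and lists were chosen with earlier results of these data known, and the lists come from general knowledge. All 6 values are given for members with an unadjusted p under 0.05, for the 4 highest and 4 lowest differences and the highest and lowest level in each compartment, and for GARS1, KARS1, HARS1 and HARS2. Of a related list at most the 3 genes with the smallest p are named with values. Alternatives were a pseudocount of 0.1, a filter at a mean of 5 TPM or none, median-of-ratios rescaling, quantile normalization, TPM without mitochondrially encoded genes, a replicate block, no trend, robust moderation and leaving out each sample. The margin by TM replicate 3 alone was added after seeing the data. Tables and figures were made with Python 3.11.15, pandas 2.3.3 and matplotlib 3.10.9.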

Additional observations from a re-analysis of the deposited data

How the results depend on the processing

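No synthetase passed an adjusted p of 0.05 under any of the 16 alternatives, where the smallest value was 0.0774. At the unadjusted threshold, the cytosolic count went from 6 to 2 after quantile normalization, 2 after median-of-ratios rescaling and 3 without a trend. Without single samples it ran from 1 to 6. These counts need not hold the same genes: FARSA and YARS1 were among the 6 without TM replicate 3, where AARS1 and FARSB were not. The mitochondrial count went from 5 to 0, 1 and 5 in the same order, and to 2 to 3 without single samples. With TM replicate 3 alone the margin has 1 sample, which is assumed to vary like the core. The cytosolic count was 3 without TC replicate 2 or TC replicate 3 and 1 without TM replicate 1, and the mitochondrial count was 2 or 3 without any one of the 6 samples. The cytosolic median difference of -0.21 was -0.0349 after median-of-ratios rescaling, and the mitochondrial median of -0.25 was -0.089 after it and -0.0562 after quantile normalization. The change of the cytosolic minus mitochondrial level, 0.01, was 0.19 with TM replicate 3 alone. Without single samples the medians ran from -0.27 to -0.17 (cytosolic) and from -0.36 to -0.22 (mitochondrial), and the change of level from -0.08 to 0.07.

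A sign change was seen in 13 genes under at least 1 alternative and in 22 under none. After median-of-ratios rescaling the difference was 0.0166 for HARS1, 0.0332 for KARS1, 0.0165 for QARS1, 0.119 for YARS1, 0.0215 for HARS2, 0.142 for IARS2, 0.00278 for PARS2 and 0.0661 for YARS2. After quantile normalization it was 0.0152 for YARS1, 0.0177 for EARS2, 0.0307 for HARS2, 0.102 for IARS2, 0.0453 for PARS2 and 0.0751 for YARS2. EPRS1 was at -0.0285 without mitochondrially encoded genes, and with TM replicate 3 alone HARS1 was at 0.01004 and YARS1 at 0.525. Without single samples EPRS1 ran from -0.22 to 0.28, LARS1 from -0.34 to 0.0002005, TARS1 from -0.16 to 0.21, YARS1 from -0.35 to 0.10, HARS2 from -0.26 to 0.0276, IARS2 from -0.18 to 0.0798, NARS2 from -0.40 to 0.0353, PARS2 from -0.65 to 0.35 and YARS2 from -0.28 to 0.00116. The cause was not tested.

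Over all genes, the 19 that passed became 1 to 47 under the other alternatives and 195 with TM replicate 3 alone. Same-numbered TC and TM samples deviated from their group means with correlations of 0.21, -0.12 and -0.16 across genes, so these values give no sign that the numbers pair the samples, and the design does not say whether they do. With the replicate number as a block, 0 synthetases passed the adjusted threshold, 4 cytosolic and 5 mitochondrial genes passed the unadjusted one, and 1 gene of all passed. Unknown depth leaves the precision of low genes such as PARS2 and MARS2 to the spread of 3 samples.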
